A study of Homo sapiens with 32 samples.

Results

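The EGF family ligands and their ERBB receptors were followed in 2 human lung cancer cell lines exposed to a gamma-secretase inhibitor. The members were 6 ligands (NRG1, AREG, EREG, HBEGF, TGFA and BTC) and 4 receptors (EGFR, ERBB2, ERBB3 and ERBB4). They were chosen with earlier results of these data known. A probe set was taken where the array's annotation gives exactly 1 symbol and that symbol is a member. This found 38 of 41091 such probe sets, which stand for 9 of the 10 genes, 5 ligands and 4 receptors. AREG was not analysed here. NRG1 has 6 of these probe sets, EREG 2, HBEGF 4, TGFA 3, BTC 2, EGFR 9, ERBB2 3, ERBB3 5 and ERBB4 4.

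The cells were A549, a line from a lung adenocarcinoma, and H460a, the labels' name for a line that the series text calls H460, from a large cell carcinoma. Each line received 2 µM of the gamma-secretase inhibitor (GSI) or vehicle for 6 or 24 h, with 4 arrays in each of the 8 groups and 32 arrays in all. The treatment label names the compound RO4929097, while the series text writes RP4929097-001-003. Cells were at 35% confluency when plated and rested overnight before the compound or vehicle was added. Nothing in the labels says whether the 4 arrays of a group came from different cultures. The p-values therefore cover array-to-array spread only, possibly technical. Precision is limited by having 4 arrays in a group. The labels name no allele or transgene.

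EGF family ligands are made as membrane proteins, and sheddases of the ADAM family release the soluble part. EGFR binds TGFA directly, while EREG, BTC and HBEGF bind both EGFR and ERBB4, and NRG1 binds ERBB3 and ERBB4. ERBB2 has no known ligand of its own, and ERBB3 has little kinase activity, so both signal mainly as partners in dimers. The pairs feed the RAS-ERK and PI3K-AKT pathways, which drive growth of many lung cancers. Gamma-secretase is best known for releasing the intracellular part of Notch receptors, and it also cuts the membrane stubs of ERBB4 and of NRG1 after a sheddase has acted. An array sees the RNA of these genes and none of this protein processing.

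Upstream sequence was read for the ligands to show which letters precede their starts, because Notch acts on DNA through RBPJ and ERK signalling through AP-1. RefSeq windows on GRCh38.p14 were at hand for AREG, EREG, HBEGF, TGFA, BTC, EGFR, ERBB2 and ERBB4. NRG1 and ERBB3 are named only. The 250 bases before the start were searched on both strands for an RBPJ core (TGGGAA), an AP-1 site (TGANTCA) and a TATA box (TATAAA), motifs that share no full match with each other. EREG is shown as the ligand with the widest difference between the lines, and HBEGF as the member with an RBPJ core. TGFA is shown as a ligand with a probe set that was higher at 24 h than at 6 h in vehicle A549. Capitals mark the motif, and the sequences run 5′ to 3′ on the gene's strand (EREG chr4:74364895-74365144, plus strand. HBEGF chr5:140346604-140346853, minus strand. TGFA chr2:70553827-70554076, minus strand).
EREG: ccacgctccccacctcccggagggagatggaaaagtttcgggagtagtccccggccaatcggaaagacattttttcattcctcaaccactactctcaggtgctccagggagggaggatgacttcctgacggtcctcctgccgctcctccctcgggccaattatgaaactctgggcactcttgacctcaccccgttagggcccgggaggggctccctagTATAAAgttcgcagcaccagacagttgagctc
HBEGF: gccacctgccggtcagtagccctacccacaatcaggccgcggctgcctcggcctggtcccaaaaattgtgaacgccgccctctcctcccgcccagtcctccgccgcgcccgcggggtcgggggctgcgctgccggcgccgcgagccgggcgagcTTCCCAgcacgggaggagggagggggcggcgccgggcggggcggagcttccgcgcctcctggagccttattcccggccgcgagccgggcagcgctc
TGFA: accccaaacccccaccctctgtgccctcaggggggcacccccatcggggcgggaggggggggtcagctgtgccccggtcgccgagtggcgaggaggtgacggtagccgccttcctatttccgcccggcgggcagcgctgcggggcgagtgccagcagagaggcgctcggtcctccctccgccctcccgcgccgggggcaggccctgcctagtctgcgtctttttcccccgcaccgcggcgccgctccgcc
The TATA box of EREG lies 32 bases before the start, and AREG, which stands next to EREG on chromosome 4, has one 29 bases before its start. The RBPJ core of HBEGF lies on the opposite strand, 96 bases before the start. ERBB2 holds an AP-1 site 222 bases before the start, and the windows of TGFA, BTC, EGFR and ERBB4 held none of these letters. Of 35116 promoter windows of this length, 20.8% hold an RBPJ core, 6.57% an AP-1 site and 10.7% a TATA box, so a match describes the letters only.

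Levels are log2 of the deposited intensity, given per array or as mean ± SD over the 4 arrays of a group. Differences are log2 values with the standard error from limma, and a result passes where the p-value, adjusted by the Benjamini-Hochberg method, is under 0.05. Each gene was tested on its brightest probe set, by the mean of the 32 arrays, with p-values adjusted over 19775 genes. Tests of single probe sets were adjusted over 41091 probe sets. As a yardstick for a level near background, the 82 olfactory receptor genes on the array, which such cells are not known to use, had a median of 5.60 and a 95th percentile of 7.04, against a median of 7.60 over all genes. A level at or under 7.04 is called near background below, and a difference measured from such a level is a lower limit. Where GSI and vehicle arrays are said not to overlap, this describes the values only. The share of all genes without overlap is given for the comparison of the lines and not for those of GSI.

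The arrays of A549 at 6 h stood apart in mean intensity. The GSI arrays lay at 495.8, 530.7, 589.3 and 583.4 and the vehicle arrays between 468.1 and 495.7, against 570.2 to 613.5 in the other 24 arrays. GSI replicates 3 and 4 thus lay among the other 24, and apart from the rest of the A549 arrays at 6 h. One H460a vehicle array at 6 h, replicate 3, had a beta-actin 3′ signal 2.19 above its 5′ signal, against 0.14 to 0.42 elsewhere. These 3 arrays are called the 3 arrays that stand apart below, because each differs from other arrays of its own line and time. Results that rest on them are also given without them. The A549 GSI arrays then left at 6 h are those at 495.8 and 530.7, set against the vehicle arrays between 468.1 and 495.7. No 2 arrays held the same values. Of 4 direct Notch target genes, HES1 (difference -2.18 ± 0.13 at 24 h and -1.63 ± 0.13 at 6 h), HES4 and HEY1 fell with GSI in A549 at both times, NRARP did not pass, and none of the 4 passed in H460a at either time. HES1 averaged 8.85 in A549 and was near background in H460a, at 6.41, where a fall would be hard to see. The epithelial keratins KRT8 and KRT18 were high in both lines, 13.6 and 14.7 in A549 and 12.9 and 13.8 in H460a. EPCAM was near background in both, CDH1 was at 10.3 in A549 and 4.57 in H460a, and KRT19 at 6.89 and 13.7. Over the 5 epithelial markers the summed intensity was 33519 to 46003 in A549 and 29376 to 39405 in H460a. Of the 4 alveolar type II markers measured, all lay above the yardstick in both lines, at summed intensities of 1119.5 to 1280.0 in A549 and 867.2 to 1194.3 in H460a. Of 4 leukocyte markers measured, CD14 and ITGAM lay above the yardstick in both lines, while PTPRC (5.27 in A549 and 5.20 in H460a) and CD3E were near background. Of 4 endothelial markers, PECAM1 lay above it in both lines and KDR in H460a (8.58), while CDH5 and VWF were near background. COL1A1 and DCN, 2 of 5 fibroblast markers, lay above it in both lines.

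NRG1 fell and ERBB3 rose with GSI in A549 at 24 h, and no member passed in H460a. In A549 at 24 h, 1 of the 9 member genes passed, NRG1, which was lower, while 2.21% of all genes passed and 0.885% were lower. The median difference of the members was -0.07, against 0.01 over all genes. ERBB3 does not appear in that count because its brightest probe set did not move. Among single probe sets, 3 of 38 passed, 1 of NRG1 and 2 of ERBB3, against 1.35% of all probe sets. Because RNA was taken from whole cultures, less RNA in each cell and fewer cells with that RNA cannot be told apart.

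NRG1, the neuregulin ligand of ERBB3 and ERBB4, was read by probe set 206343_s_at at 8.99, 9.21, 9.20 and 9.07 in the A549 GSI arrays at 24 h, against 9.48, 9.45, 9.73 and 9.69 in the vehicle arrays. All 4 GSI arrays lay below all 4 vehicle arrays. The difference was -0.47 ± 0.10, a 0.72-fold level (adjusted p = 0.00688, limma, 95% interval -0.68 to -0.26, n = 4 each). Adjusted over all probe sets, it missed the threshold with the replicate number as a block (-0.47, adjusted p = 0.0679, limma). It also missed there with some single arrays left out. The 8 arrays covered mean intensities of 584.4 to 602.1. The part of array differences in the fall was not tested beyond the alternatives given. At 6 h the NRG1 arrays of A549 overlapped, at 9.52, 9.55, 9.97 and 9.77 with GSI and 9.62, 9.70, 9.36 and 9.49 with vehicle. The difference there was 0.16 ± 0.10 (adjusted p = 0.338, limma).

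The effect of GSI on NRG1 in A549 was lower at 24 h than at 6 h by 0.63 on the log2 scale (difference of effects -0.63 ± 0.15, adjusted p = 0.0218, limma). Without the 3 arrays that stand apart it was -0.46 and missed the threshold (adjusted p = 0.257). In H460a, NRG1 was at 7.87, 7.79, 7.38 and 7.73 with GSI at 24 h and at 7.97, 7.85, 7.95 and 7.98 with vehicle. The groups overlapped only through 1 GSI array that lay within the vehicle range. That difference was -0.24 ± 0.10 (adjusted p = 0.808, limma), and the effect in A549 minus that in H460a was -0.23 ± 0.15 (adjusted p = 0.715, limma, interval -0.53 to 0.07), so a difference between the lines was not shown for this probe set.

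The other 5 NRG1 probe sets were also lower with GSI in A549 at 24 h, and none of them passed. Probe set 208241_at averaged 6.93 ± 0.12 with GSI and 7.47 ± 0.35 with vehicle, a difference of -0.54 ± 0.16 (adjusted p = 0.102, limma). Probe set 206237_s_at averaged 7.96 ± 0.17 with GSI and 8.29 ± 0.17 with vehicle (adjusted p = 0.135, limma). In both of these the GSI arrays lay below every vehicle array. Probe set 208231_at, near background at 4.31 with GSI and 4.67 with vehicle, differed by -0.36 ± 0.10 (adjusted p = 0.0792, limma). Probe sets 208230_s_at and 208232_x_at differed by -0.14 ± 0.11 and -0.10 ± 0.08, with arrays that overlapped. Probe sets of NRG1 can read different transcript forms, which the array's annotation does not separate. Averaging the 6 probe sets gave a difference in effect between A549 and H460a at 24 h of -0.37 (adjusted p = 0.0280, limma), past the threshold that the brightest probe set alone missed.

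**Figure D1:**
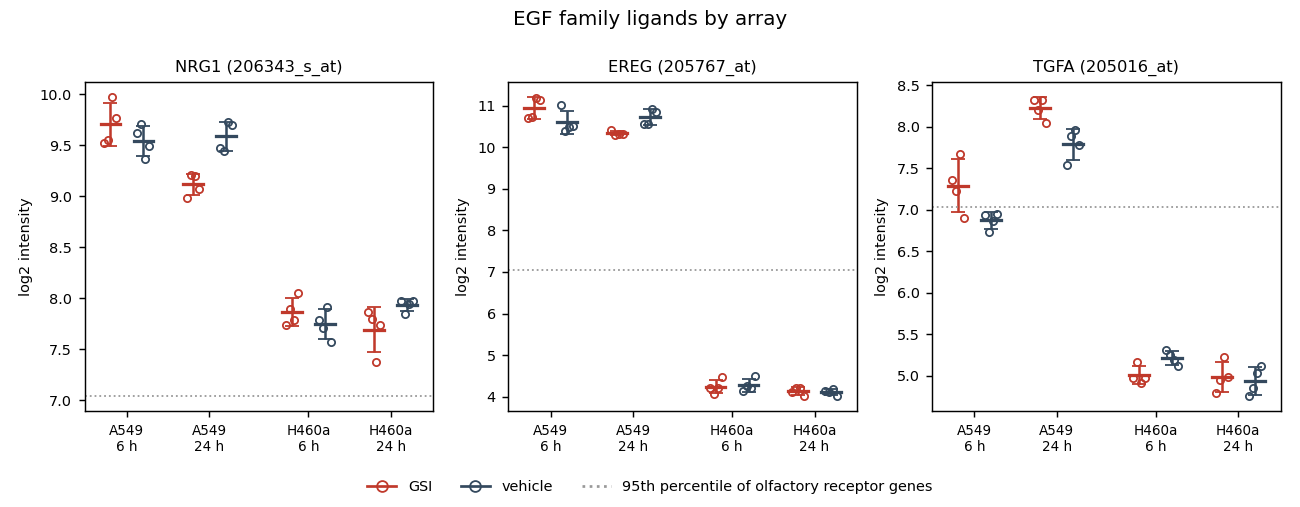
Log2 intensity of NRG1 (206343_s_at), EREG (205767_at) and TGFA (205016_at) on each of the 32 arrays, by line and time, GSI in red left of vehicle in blue. Bars are the mean and SD of 4 arrays, and the dotted line is the 95th percentile of the olfactory receptor genes (7.04). NRG1 with GSI in A549 at 24 h (8.99 to 9.21) lies below its vehicle arrays, and EREG and TGFA in H460a lie under the dotted line.

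EREG, epiregulin, was among the brightest members in A549 and near background in H460a. In A549 at 24 h it was at 10.40, 10.31, 10.31 and 10.33 with GSI, against 10.57, 10.56, 10.93 and 10.84 with vehicle. The groups did not overlap, and the GSI arrays lay within 0.1 of each other. The difference of -0.39 ± 0.12 missed the threshold (adjusted p = 0.0795, limma, interval -0.63 to -0.15). It passed without the 3 arrays that stand apart (adjusted p = 0.0352), which lie outside this comparison and enter only the shared estimate of the spread. At 6 h EREG was at 10.71, 10.72, 11.20 and 11.14 with GSI and at 11.02, 10.40, 10.49 and 10.51 with vehicle, a difference of 0.34 ± 0.12 (adjusted p = 0.0506, limma).

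The arrays at 6 h overlapped, and the 2 highest GSI values are those of the arrays with mean intensities of 589.3 and 583.4. Without the 3 arrays that stand apart the 6 h difference was 0.11 (adjusted p = 0.853). The effect of GSI on EREG in A549 was lower at 24 h than at 6 h by 0.73 (difference of effects -0.73 ± 0.17, adjusted p = 0.0189, limma), and the size was -0.50 without the 3 arrays (adjusted p = 0.283) and -0.55 with quantile normalization (adjusted p = 0.0543). With NRG1 these were the 2 of 9 members that passed in that comparison, against 3.71% of all genes. In H460a, EREG averaged 4.14 ± 0.09 with GSI and 4.11 ± 0.08 with vehicle at 24 h, near background in both groups. The second EREG probe set, 1569583_at, was near background in all 8 groups, at group means of 6.26 to 6.88.

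TGFA, a ligand of EGFR, gave different readings by probe set. The probe set used for the gene, 211258_s_at, averaged 7.08 ± 0.13 with GSI and 7.01 ± 0.06 with vehicle in A549 at 24 h, a difference of 0.07 ± 0.08 (adjusted p = 0.846, limma). Probe set 205016_at was at 8.32, 8.21, 8.33 and 8.05 with GSI, against 7.54, 7.89, 7.96 and 7.78 with vehicle. Every GSI array lay above every vehicle array on that probe set. Its difference of 0.43 ± 0.12 fell just short when adjusted over all probe sets (adjusted p = 0.0547, limma, interval 0.20 to 0.67) and passed without the 3 arrays that stand apart (adjusted p = 0.0110). Those 3 arrays lie outside this comparison and enter only the shared estimate of the spread.

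At 6 h, 205016_at was at 7.36, 7.22, 7.67 and 6.90 with GSI and at 6.94, 6.73, 6.87 and 6.95 with vehicle in A549. The difference of 0.41 ± 0.12 passed (adjusted p = 0.0291, limma), although 1 GSI array lay within the vehicle range. It did not pass without the 3 arrays (adjusted p = 0.440) or with the arrays of this comparison alone (adjusted p = 0.106), at a difference of 0.41 to 0.43 under the 6 alternatives that could test it. In H460a this probe set was near background, at 4.99 ± 0.18 with GSI and 4.94 ± 0.17 with vehicle at 24 h. The third TGFA probe set, 205015_s_at, lay between 6.66 and 7.11 in group means and differed by 0.01 ± 0.10 with GSI in A549 at 24 h.

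HBEGF and BTC, ligands of EGFR and ERBB4, were near background on all 4 and both of their probe sets by the mean over arrays. HBEGF (38037_at) averaged 6.81 ± 0.09 with GSI and 6.88 ± 0.08 with vehicle in A549 at 24 h, and 6.93 ± 0.05 with GSI and 6.96 ± 0.07 with vehicle in H460a. BTC (241412_at) averaged 4.81 ± 0.05 with GSI and 4.88 ± 0.30 with vehicle in A549 at 24 h, and 4.05 ± 0.07 with GSI and 4.12 ± 0.05 with vehicle in H460a. None of these differences passed.

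ERBB3, the kinase-impaired receptor that NRG1 binds, had the clearest rise with GSI among the members. On probe set 226213_at it was at 8.04, 8.31, 8.41 and 8.33 in the A549 GSI arrays at 24 h, against 7.47, 7.43, 7.35 and 7.25 in the vehicle arrays. On probe set 202454_s_at it was at 7.98, 8.25, 8.17 and 8.53 with GSI, against 6.96, 7.39, 7.32 and 7.45 with vehicle. On both probe sets every GSI array lay above every vehicle array, and both groups lay above the yardstick apart from 1 vehicle array at 6.96.

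The ERBB3 difference on 226213_at was 0.90 ± 0.11, a 1.87-fold level (adjusted p = 2.6e-06, limma, interval 0.68 to 1.12, n = 4 each). On 202454_s_at it was 0.95 ± 0.14, a 1.94-fold level (adjusted p = 5.73e-05, limma, interval 0.67 to 1.23). Each passed under all 6 alternatives in which it could be tested and after leaving out any 1 of the 8 arrays. The other 3 ERBB3 probe sets did not pass. Probe set 1563253_s_at, the brightest over all arrays and so the one used for the gene, averaged 6.94 ± 0.09 with GSI and 6.85 ± 0.06 with vehicle (difference 0.10 ± 0.09, adjusted p = 0.770, limma). Probe sets 1563252_at and 215638_at differed by 0.09 ± 0.10 and 0.17 ± 0.09. These 3 probe sets lay near background in all 8 groups, with group means of 5.25 to 6.94, while 226213_at and 202454_s_at reached group means of 8.27 and 8.23.

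In H460a, ERBB3 was near background on all 5 probe sets. Probe set 226213_at was at 5.15, 5.002, 5.06 and 5.38 with GSI at 24 h, against 4.84, 4.97, 5.27 and 4.88 with vehicle, and the groups overlapped. Probe set 202454_s_at averaged 4.95 ± 0.25 with GSI and 4.96 ± 0.18 with vehicle. The effect in A549 minus the effect in H460a at 24 h was 0.74 ± 0.15 on 226213_at (adjusted p = 0.0168, limma) and 0.96 ± 0.19 on 202454_s_at (adjusted p = 0.0158, limma). These were the 2 of 38 member probe sets that passed in that comparison, against 0.294% of all probe sets, and at the gene level 0 of 9 members passed by limma (2 at an unadjusted p under 0.05), against 0.637% of all genes. With the replicate number added to the fit as a block, 226213_at stayed at 0.74 and did not pass (adjusted p = 0.112, limma).

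At 6 h in A549 the ERBB3 rise was smaller. Probe set 226213_at was at 6.83, 6.59, 6.98 and 6.79 with GSI and at 6.37, 6.71, 6.40 and 6.25 with vehicle, all near background and with overlap. Its difference of 0.37 ± 0.11 passed (adjusted p = 0.0353, limma), but not with quantile normalization (0.39, adjusted p = 0.0609), with the arrays of this comparison alone (adjusted p = 0.0995) or without the 3 arrays that stand apart, where it was 0.28 (adjusted p = 0.722) with 2 GSI arrays left. Probe set 202454_s_at was at 6.83, 6.87, 6.83 and 7.19 with GSI and at 6.79, 6.72, 6.69 and 6.83 with vehicle, a difference of 0.17 ± 0.14 (adjusted p = 0.498, limma). Across the 38 member probe sets 4 passed at 6 h, 226213_at, TGFA 205016_at and 2 of EGFR, against 7.34% of all probe sets. The effect at 24 h minus that at 6 h was 0.78 ± 0.19 on 202454_s_at (adjusted p = 0.0419, limma) and 0.53 ± 0.15 on 226213_at (adjusted p = 0.0640, limma). Without the 3 arrays the first of these was larger, 0.86 ± 0.21, and did not pass with 2 GSI arrays left at 6 h (adjusted p = 0.143). It was 0.72 with quantile normalization (adjusted p = 0.0668) and 0.77 with each array centred (adjusted p = 0.0672). In that comparison 4 of 38 member probe sets passed, 1 each of NRG1, EREG, EGFR and ERBB3, against 1.36% of all probe sets.

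Among the epithelial markers, 1 of 5 moved beside ERBB3 in A549 at 24 h. KRT19 averaged 7.48 ± 0.09 with GSI and 6.86 ± 0.16 with vehicle, a rise of 0.62 ± 0.11 (adjusted p = 0.000553, limma). No marker of the leukocyte, endothelial, fibroblast or alveolar type II lists passed there. The part of cell state or of array differences in the ERBB3 rise was not tested beyond the alternatives given.

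**Figure D2:**
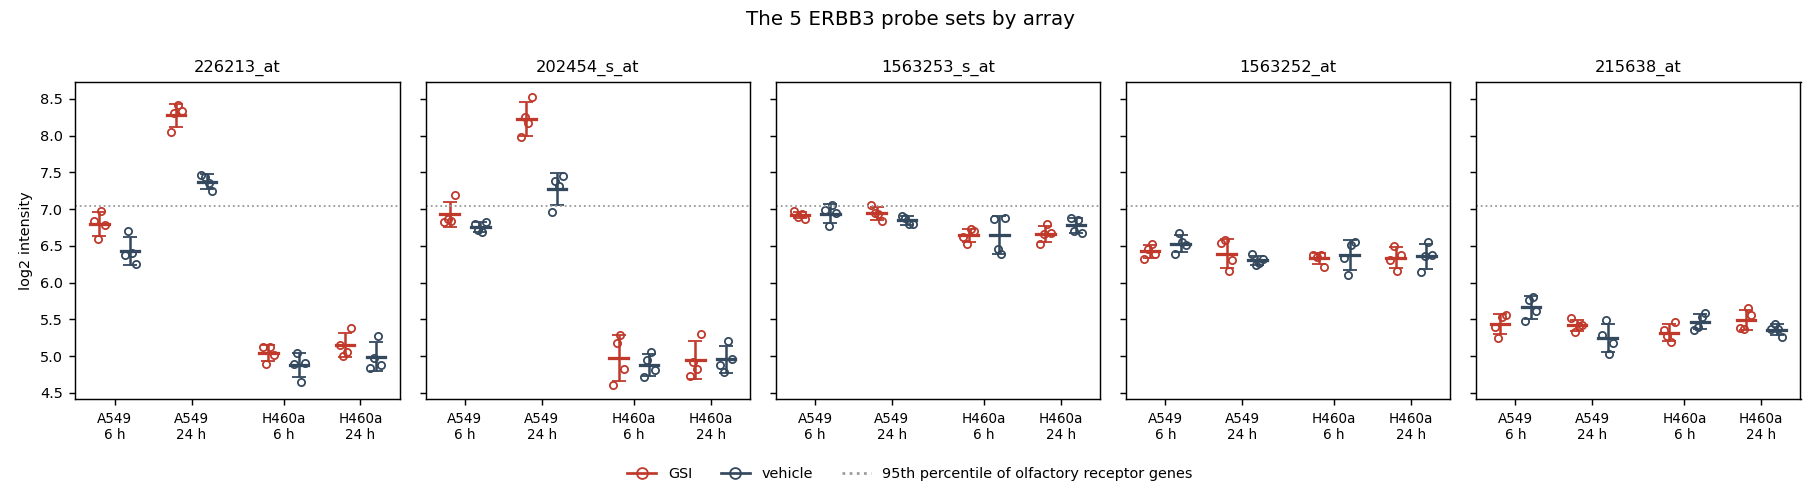
Log2 intensity of the 5 ERBB3 probe sets on each array, by line and time, GSI in red left of vehicle in blue, with the mean and SD of 4 arrays and the dotted line at 7.04. The GSI arrays of A549 at 24 h lie above the vehicle arrays on 226213_at and 202454_s_at, while all H460a arrays lie under the line on the 5 probe sets, and the other 3 probe sets reach 7.06 at most in A549.

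EGFR, the receptor of TGFA and EREG, was high in both lines, and its 9 probe sets did not move together. The probe set used for the gene, 201983_s_at, was at 10.23, 9.76, 9.88 and 9.69 with GSI and 11.19, 10.15, 10.31 and 10.56 with vehicle in A549 at 24 h. Its difference of -0.66 ± 0.33 carries the widest standard error of the 9 genes and did not pass (adjusted p = 0.432, limma). Probe set 224999_at was steadier, at 10.54, 10.53, 10.58 and 10.65 with GSI, against 10.77, 10.86, 10.90 and 10.91 with vehicle. The groups did not overlap, and the difference of -0.29 ± 0.09 did not pass (adjusted p = 0.107, limma, interval -0.46 to -0.11).

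A similar size was seen on EGFR probe set 201984_s_at, at -0.25 ± 0.08 (adjusted p = 0.127, limma). In H460a at 24 h, 224999_at was at 9.46, 9.24, 9.28 and 9.51 with GSI and 9.59, 9.70, 9.51 and 9.69 with vehicle, a difference of -0.25 ± 0.09 (adjusted p = 0.644, limma). The effect in A549 minus that in H460a on this probe set was -0.04 ± 0.12 (adjusted p = 0.986, limma, interval -0.29 to 0.21), so the lines were not shown to differ, and differences of up to about that interval remain possible.

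Probe set 1565483_at of EGFR moved the most of all 38 at 6 h in A549, and its values tended to be lower on arrays of higher mean intensity. It was at 8.56, 8.10, 6.70 and 7.44 with GSI, against 8.61, 8.73, 9.06 and 9.02 with vehicle. Every GSI array lay below every vehicle array, the closest values being 8.56 and 8.61. The parts of GSI and of array intensity in this difference were not tested. The GSI arrays with mean intensities of 495.8 and 530.7 lay close to vehicle, and those at 589.3 and 583.4 lay close to the 24 h arrays, which held 6.86, 7.21, 6.87 and 6.97 with GSI and 6.80, 6.46, 6.73 and 6.79 with vehicle. The difference of -1.16 ± 0.25 passed (adjusted p = 0.00882, limma), and without the 3 arrays it was -0.53 (adjusted p = 0.699). With the arrays of this comparison alone the adjusted p was 0.0894. Probe set 1565484_x_at of EGFR was at 8.25, 7.77, 6.54 and 7.34 with GSI and at 7.81, 8.49, 8.44 and 8.36 with vehicle, and these arrays overlapped. Its difference was -0.80 ± 0.25 (adjusted p = 0.0443, limma) and -0.27 without the 3 arrays (adjusted p = 0.872).

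**Figure D3:**
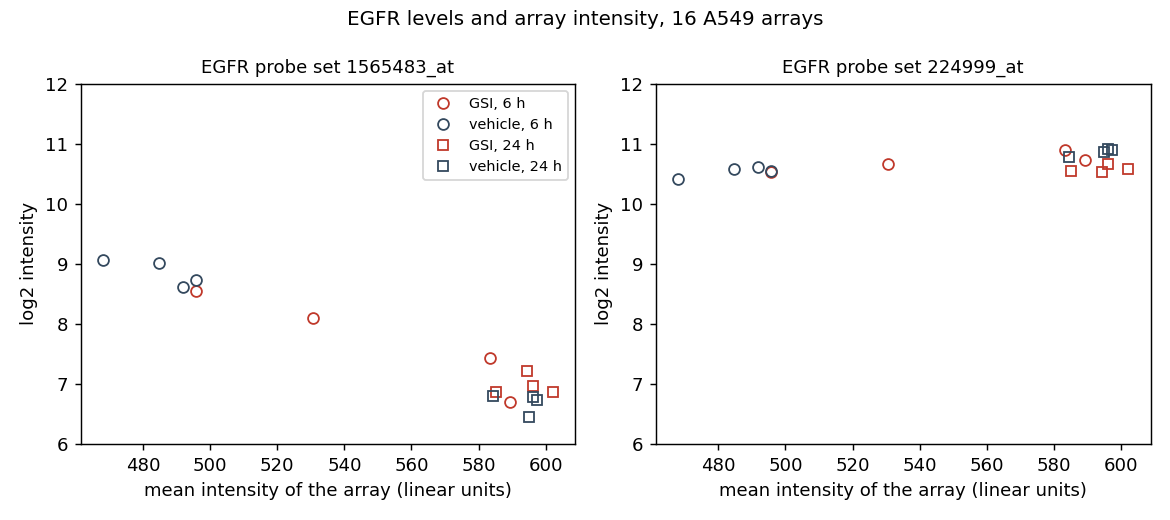
Log2 intensity of EGFR probe sets 1565483_at and 224999_at against the mean linear intensity of the array, for the 16 A549 arrays (circles 6 h, squares 24 h, GSI in red and vehicle in blue). The arrays between 468.1 and 495.8 are highest on 1565483_at (8.56 to 9.06), while 224999_at stays between 10.42 and 10.91 on all 16.

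ERBB2, the receptor without a known ligand, changed little with GSI. Probe set 216836_s_at was at 10.18, 10.30, 10.31 and 10.19 with GSI and 9.998, 10.11, 10.09 and 10.14 with vehicle in A549 at 24 h. The groups did not overlap, and the difference of 0.16 ± 0.07 did not pass (adjusted p = 0.297, limma, interval 0.03 to 0.30). In H460a the 24 h means were 9.38 ± 0.11 with GSI and 9.46 ± 0.10 with vehicle (adjusted p = 0.983, limma). The other 2 ERBB2 probe sets lay near background by their mean over arrays.

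ERBB4, the neuregulin receptor that gamma-secretase cuts, was near background on all 4 probe sets in all 8 groups, with group means of 4.53 to 5.45. Its brightest probe set, 233498_at, averaged 5.16 ± 0.06 with GSI and 5.23 ± 0.05 with vehicle in A549 at 24 h, and 5.39 ± 0.24 with GSI and 5.45 ± 0.08 with vehicle in H460a. No ERBB4 probe set passed in any GSI comparison.

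In the other 3 comparisons of GSI with vehicle no member gene passed by limma. In A549 at 6 h, 0 of 9 genes passed by limma (1 at an unadjusted p under 0.05), against 13.1% of all genes. That share was 2.82% after quantile normalization and 0.111% without the 3 arrays that stand apart. In H460a, 0 of 9 passed by limma at 24 h (1 at an unadjusted p under 0.05), against 0.00506% of all genes, and 0 of 9 at 6 h (1 at an unadjusted p under 0.05), against 0.0961%. Among the 38 single probe sets in H460a, 0 passed by limma at 24 h (5 at an unadjusted p under 0.05), against 0% of all probe sets, and 0 at 6 h (4 at an unadjusted p under 0.05), against 0.0487%. For the effect in A549 minus that in H460a at 6 h, 0 of 9 passed by limma (2 at an unadjusted p under 0.05), against 0.121%. For the effect at 24 h minus that at 6 h in H460a, 0 of 9 passed by limma (1 at an unadjusted p under 0.05), against 0.0101%.

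**Figure D4:**
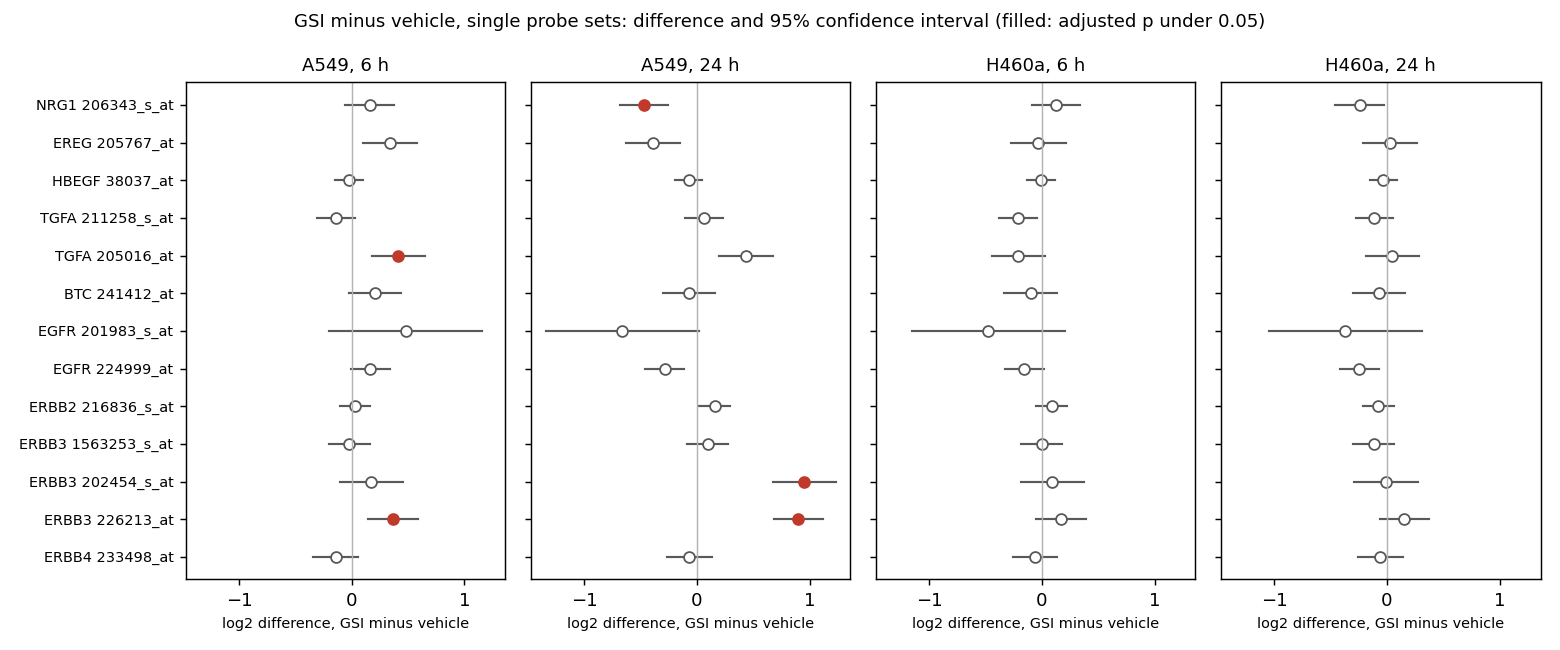
Log2 difference, GSI minus vehicle, of 13 member probe sets in A549 and H460a at 6 and 24 h, with lines for the 95% interval from limma and filled marks where the adjusted p over all probe sets is under 0.05. ERBB3 226213_at (0.90) and 202454_s_at (0.95) stand above the rest in A549 at 24 h, and the H460a panels hold no filled mark.

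Between the lines, most of the 9 members were higher in A549. With vehicle, averaged over both times, 8 of 9 members differed between A549 and H460a, 7 higher and 1 lower in A549, against 56.7% of all genes, 28.8% higher and 27.9% lower. Of the 38 member probe sets 26 passed, against 52.8% of all probe sets. EREG averaged 10.66 ± 0.23 in A549 and 4.19 ± 0.14 in H460a (n = 8 each), a difference of 6.47 ± 0.08 (adjusted p = 2.27e-35, limma), or 88.7-fold as a lower limit because H460a was near background. NRG1 averaged 9.56 ± 0.14 in A549 and 7.84 ± 0.15 in H460a (difference 1.73 ± 0.07, adjusted p = 1.94e-20, limma). Both ligands had no overlap between lines, and 26% of all genes had none.

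TGFA probe set 205016_at averaged 7.33 in A549 and 5.08 in H460a, a difference of 2.26 ± 0.08, while the probe set used for the gene differed by 0.16 ± 0.06. ERBB3 probe sets 202454_s_at and 226213_at were higher in A549 by 2.10 ± 0.10 and 1.97 ± 0.08, while 1563253_s_at differed by 0.18 ± 0.06. EGFR (224999_at) averaged 10.70 in A549 and 9.27 in H460a, a difference of 1.42 ± 0.06. ERBB2 averaged 9.95 ± 0.15 in A549 and 9.29 ± 0.21 in H460a, a difference of 0.66 ± 0.05 (adjusted p = 3.12e-14, limma). BTC was higher in A549 by 0.60 ± 0.08 between levels that are both near background. HBEGF was the member lower in A549, at 6.90 ± 0.07 in A549 and 7.08 ± 0.13 in H460a (difference -0.17 ± 0.04, adjusted p = 0.000546, limma). ERBB4 did not pass (difference -0.04 ± 0.07, adjusted p = 0.646, limma). Of 4 measured other EGF family ligands, 3 were lower and 0 higher in A549 by limma. EGF averaged 4.97 ± 0.18 in A549 and 8.53 ± 0.44 in H460a (difference -3.56 ± 0.07, adjusted p = 4.97e-30, limma), NRG4 differed by -1.73 ± 0.11 and NRG2 by -0.22 ± 0.09. At 24 h, 17 of the 38 member probe sets had a group mean above the yardstick in A549 with GSI and 17 with vehicle, and 8 with GSI and 9 with vehicle in H460a.

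**Figure D5:**
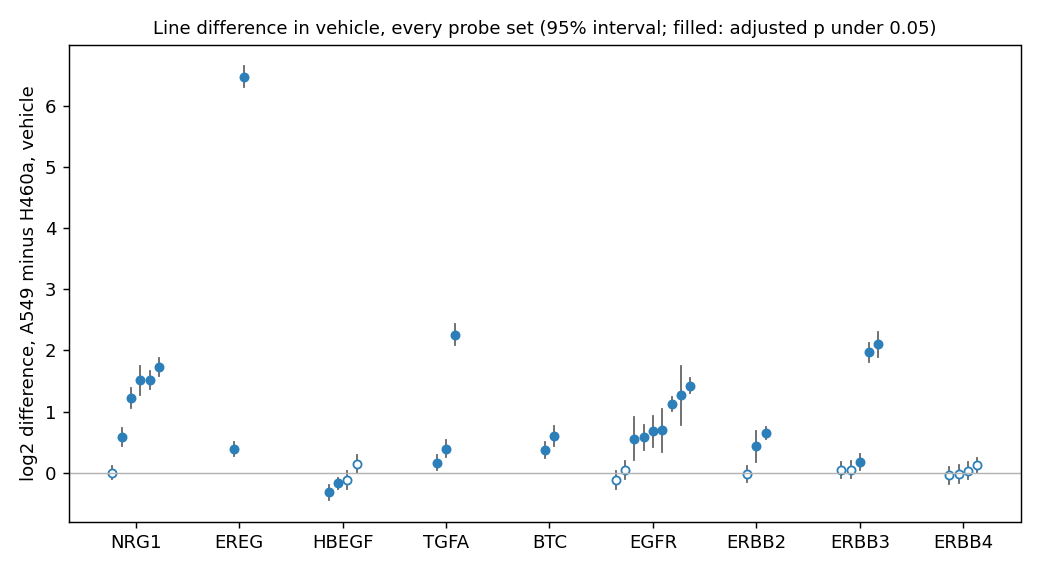
Log2 difference, A549 minus H460a, in vehicle for each of the 38 member probe sets, grouped by gene and ordered by size, with the 95% interval from limma and filled marks where the adjusted p is under 0.05. The brightest EREG probe set stands at 6.47, NRG1 at 1.73, HBEGF below 0 at -0.17 and ERBB4 at -0.04.

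Ordered by group mean, the 4 A549 groups stood above the 4 H460a groups for NRG1, EREG, TGFA, BTC, EGFR, ERBB2 and ERBB3. For TGFA, EGFR and ERBB3 the highest H460a group overlapped with the lowest A549 group. For HBEGF the 4 H460a groups stood above the 4 A549 groups, with overlap. For EREG the order in A549 was GSI at 24 h (10.34), vehicle at 6 h (10.60), vehicle at 24 h (10.73) and GSI at 6 h (10.94), and neighbours in this order had overlapping arrays. For NRG1 the A549 groups ran from 9.12 with GSI at 24 h to 9.70 with GSI at 6 h, and the first step, to 9.54, was the one without overlap. For ERBB2 the order in A549 was vehicle at 6 h (9.82), GSI at 6 h (9.84), vehicle at 24 h (10.08) and GSI at 24 h (10.24), and its first 2 groups overlapped.

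Some members also differed between the 2 times in culture. In vehicle A549, 3 of 9 members differed between 24 and 6 h, ERBB2 and BTC higher and TGFA lower at 24 h, against 44.2% of all genes, 29.2% higher and 15% lower. ERBB2 averaged 10.08 ± 0.06 at 24 h and 9.82 ± 0.05 at 6 h (difference 0.27 ± 0.07, adjusted p = 0.00138, limma). EGFR probe set 224999_at averaged 10.86 ± 0.06 at 24 h and 10.54 ± 0.08 at 6 h (difference 0.32 ± 0.09, adjusted p = 0.00338, limma). ERBB3 probe set 226213_at rose to 7.37 ± 0.10 at 24 h, against 6.43 ± 0.19 at 6 h, a difference of 0.94 ± 0.11 (adjusted p = 7.16e-08, limma), about as large as its difference with GSI at 24 h. TGFA probe set 205016_at averaged 7.79 ± 0.19 at 24 h and 6.87 ± 0.10 at 6 h (difference 0.92 ± 0.12, adjusted p = 3.91e-07, limma), while the probe set used for the gene differed by -0.24 ± 0.08.

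These A549 vehicle arrays differed in mean intensity as well, from 584.4 to 597.3 at 24 h and from 468.1 to 495.7 at 6 h. Time and array intensity cannot be told apart in them. Quantile normalization left ERBB2 at 0.01 (adjusted p = 0.950) and EGFR 224999_at at 0.04 (adjusted p = 0.705), while ERBB3 226213_at and 202454_s_at and TGFA 205016_at passed under all 6 alternatives. ERBB3 202454_s_at was higher at 24 h by 0.52 ± 0.14, ERBB3 215638_at, near background, differed by -0.42 ± 0.09, and the probe set used for the gene by -0.09 ± 0.09, which did not pass. Of the 38 member probe sets, 14 passed with time in vehicle A549, against 35.6% of all probe sets.

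In vehicle H460a, whose arrays were of like intensity, 2 of 9 members differed between 24 and 6 h, against 30.4% of all genes. ERBB2 averaged 9.46 ± 0.10 at 24 h and 9.13 ± 0.12 at 6 h (difference 0.34 ± 0.07, adjusted p = 0.000133, limma). HBEGF averaged 6.96 ± 0.07 at 24 h and 7.19 ± 0.05 at 6 h (difference -0.23 ± 0.06, adjusted p = 0.00279, limma). EGFR probe sets 224999_at and 201984_s_at were higher at 24 h by 0.69 ± 0.09 and 0.54 ± 0.08, and both kept their direction and passed under all 7 alternatives. Of the 38 member probe sets 6 passed, against 25.3% of all probe sets.

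The lists around the receptors were counted with GSI in A549 at 24 h, where 2.21% of all genes passed. Of 17 measured negative regulators of ERBB and RAS signalling (18 listed), 1 rose and 1 fell. SPRY1, a Sprouty inhibitor of RAS-ERK signalling, averaged 7.55 ± 0.17 with GSI and 6.84 ± 0.10 with vehicle (difference 0.71 ± 0.10, adjusted p = 3.65e-05, limma). SOCS5, which promotes the breakdown of EGFR, averaged 10.49 ± 0.02 with GSI and 11.01 ± 0.05 with vehicle (difference -0.51 ± 0.07, adjusted p = 2e-05, limma). For both genes the effect in A549 differed from that in H460a (SPRY1 0.74 ± 0.15, adjusted p = 0.00909, and SOCS5 -0.49 ± 0.10, adjusted p = 0.0129, limma). With quantile normalization, or without the 3 arrays, 1 rose and 4 fell, the added genes being ERRFI1, LRIG1 and CBL. Of all genes, 3.07% and 3.36% passed under these settings. The median difference of the list was -0.06, against 0.01 over all genes.

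Of 15 genes that ERK signalling induces, 1 fell and 0 rose in A549 at 24 h by limma. PHLDA1, such a gene, averaged 11.68 ± 0.09 with GSI and 12.03 ± 0.03 with vehicle (difference -0.35 ± 0.09, adjusted p = 0.0405, limma). None of the 4 measured other EGF family ligands, 10 sheddases and their helpers, or 17 measured adaptors and relay proteins of 24 listed passed there. In H460a, none of these 5 lists had a gene past the threshold at either time.

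In A549 at 6 h, 4 of 10 shedding genes passed and all 4 were higher: ADAM9 by 0.35 ± 0.10, ADAM17 by 0.31 ± 0.08, ADAM10 by 0.28 ± 0.09 and NRDC by 0.22 ± 0.07. Among the adaptors 4 of 17 were higher (PTPN11, SHC1, GRB2 and STAT3), among the negative regulators 5 of 17, led by LRIG3 at 0.44 ± 0.14 and SOCS4 at 0.43 ± 0.09, and among the ERK-induced genes 3 of 15 (PHLDA1, DUSP6 and DUSP4). The background in this comparison was 11.6% of genes higher. Without the 3 arrays that stand apart none of these passed, and after quantile normalization SOCS4, DUSP6 and PHLDA1 were the ones of them that did.

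Over the 8 group means, each less its line's mean, the genes most like NRG1 among the 3680 with an SD of at least 0.2 were COL5A1 (Pearson r = 0.864), TFPI2 (0.862) and CORO2B (0.837). The same measure, applied after their values were seen, gave AGR2 (0.992), HOXB8 (0.986) and FBXW2 (0.982) for ERBB3 probe set 226213_at, and CPT1A (0.990), MID1IP1 (0.989) and SHC1 (0.989) for TGFA probe set 205016_at. These correlations run over 8 values that share arrays, time and line, and are given as a description. In A549 at 24 h, COL5A1, TFPI2 and CORO2B differed by -0.81, -0.72 and -0.73 with GSI, and AGR2, HOXB8 and FBXW2 by 0.69, 0.77 and 0.42.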

How the data were processed

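The deposited table holds 1 intensity per probe set and array. Its values are linear, as their range shows, and per the submitters' processing notes the authors used RMA. Which software and version ran it is not given in the sources used here. Values were log2-transformed without further scaling. The 62 control probe sets were left out, and 41091 of 54675 probe sets with 1 gene symbol in the platform annotation were used, as 19775 genes. Means of the 8 groups over 32 arrays were fitted with limma 3.58.1 (lmFit, eBayes) in R 4.3.3 for 11 contrasts, with Benjamini-Hochberg adjustment within each. The steps were tested on simulated data. Members, lists and alternatives were chosen with earlier results of these data known, and the setting without the 3 arrays that stand apart was chosen the same way. The named genes are all members, up to 4 genes past the threshold per list and comparison, 4 Notch targets, and the 3 genes most like a member that passed. The probe-set patterns of ERBB3 and TGFA were added after their values were seen. Promoter windows are RefSeq's. Figures used matplotlib 3.10.9 and pandas 2.3.3 in Python 3.11.15. A note on embryos in the sample descriptions was not used.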

Additional observations from a re-analysis of the deposited data

Results flagged for a closer look

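In 13 member probe sets, 104 groups of 4 arrays were checked for a single array far from the other 3, and 5 were found, where chance gives about 1 in 20 groups. EGFR probe set 201983_s_at was at 11.82 in A549 GSI replicate 4 at 6 h, with the other 3 arrays at 11.15 to 11.25. The same EGFR probe set was at 7.95 in H460a vehicle replicate 3 at 24 h, with the others at 9.94 to 10.30. ERBB4 probe set 233498_at was at 5.28 in A549 vehicle replicate 1 at 6 h, with the others at 5.47 to 5.48, and at 4.97 in H460a vehicle replicate 3 at 6 h, with the others at 5.37 to 5.43. That H460a array is the one with the raised actin 3′ signal. ERBB3 probe set 202454_s_at was at 7.19 in A549 GSI replicate 4 at 6 h, with the others at 6.83 to 6.87.

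In the same 13 probe sets, a difference between groups in the effect of GSI passed in 5 tests of the difference itself, as reported above. At 24 h the ERBB3 effect in A549 exceeded that in H460a by 0.96 on 202454_s_at and by 0.74 on 226213_at. Both probe sets were near background in H460a, and 226213_at did not pass with the replicate number as a block (adjusted p = 0.112, limma). In A549 the effect at 24 h minus that at 6 h was -0.63 for NRG1 (206343_s_at), -0.73 for EREG (205767_at) and 0.78 for ERBB3 (202454_s_at). Without the 3 arrays that stand apart, none of these differences between times passed (adjusted p = 0.257, 0.283 and 0.143, limma). EGFR 1565483_at, outside the 13 probe sets, also passed for 24 h minus 6 h in A549. Without the 3 arrays it was 0.81 and did not pass (adjusted p = 0.361, limma).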

How the results depend on the processing

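The number of member genes past the threshold was counted in 11 comparisons under 9 settings, and 76 of these 99 counts stayed within 1.5 times the count as reported. Some of the 76 could hardly move. For GSI in H460a, where 0.00506% of all genes passed at 24 h and 0.0961% at 6 h, the count was 0 under every setting. The same held for A549 minus H460a at 6 h (0.121%) and for 24 h minus 6 h in H460a (0.0101%). For GSI in A549 at 24 h, reported as 1, the count was 2 with quantile normalization, without the 3 arrays, with the comparison's own arrays, with the mean of a gene's probe sets and with every probe set tested by itself. For GSI in A549 at 6 h, reported as 0, it was 1 with centring, with trend and robust eBayes and with the mean of probe sets, and 3 with every probe set. For A549 minus H460a at 24 h, reported as 0, it was 2 with the mean of probe sets and 1 with every probe set. For 24 h minus 6 h in A549, reported as 2, it was 0 without the 3 arrays, 1 with quantile normalization, 1 without genes at or under the median level, 1 with the replicate block and 4 with every probe set. For time in vehicle A549, reported as 3, it was 1 without dim genes, 5 with the mean of probe sets and 7 with every probe set. For time in vehicle H460a, reported as 2, it was 1 without dim genes, 1 with the mean and 4 with every probe set. Between lines, reported as 8, it was 3 without dim genes.

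Leaving out each array in turn gave 1 for GSI in A549 at 24 h, 0 to 2 at 6 h, 0 to 2 for 24 h minus 6 h in A549, 2 to 3 for time in each line, 8 between lines and 0 in the other 5 comparisons. NRG1 in A549 at 24 h passed under all 8 settings that could test it, at -0.48 to -0.32. Its probe set alone, adjusted over all probe sets, passed in 6 of 7 settings and in 5 of 8 with an array left out. In 3 cases the direction turned with time in vehicle A549: EGFR 201984_s_at was at -0.000144 with quantile normalization, and with the mean of probe sets TGFA was at 0.22 and ERBB3 at 0.15. The cause was not tested.

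Same-numbered arrays of GSI and vehicle correlated above 0.1 in 5 of 16 pairs (r from -0.35 to 0.32), so the numbers were not taken as pairs. With the number as a replicate block the count for GSI in A549 at 24 h was 1, and ERBB3 226213_at in A549 minus H460a at 24 h stayed at 0.74 and did not pass (adjusted p = 0.112). Over all genes, 2600 passed for GSI in A549 at 6 h as deposited, 557 with quantile normalization and 22 without the 3 arrays, and 437, 608 and 664 at 24 h. Levels near background limit HBEGF, BTC, ERBB4 and, in H460a, EREG and ERBB3.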
